A study of Mus musculus with 36 samples.

Results

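The genes described here are 9 regulators of pluripotency, taken by Ensembl identifier from the deposited count table: Pou5f1, Sox2, Nanog, Sall4, Lin28a, Lin28b, Utf1, Dppa4 and Dppa2. They are 9 of the 49671 genes in the table, they are a fixed list of names rather than a cut on measured values, and all 9 were tested. The 36 RNA-seq libraries come from mouse pluripotent stem cells of 3 separate lines, called Bod1L, Setd1a and Mll2 after the targeted gene (Mll2 is Kmt2b), as wild-type cells and as knockout cells. Naive embryonic stem cells grew in LIF with PD0325901 (a MEK inhibitor) and CT99021 (a GSK3 inhibitor), called 2i. Cycling embryonic stem cells grew in LIF and FCS, and epiblast-like stem cells (EpiSC) in Activin A and FGF2. Each of the 18 combinations of line, genotype and culture had 2 replicates labelled biological, so a wild-type culture condition had 6 libraries over the 3 lines. The titles name tamoxifen for every knockout library and for no wild-type library, so knockout and tamoxifen cannot be told apart. Cell type and medium changed together in EpiSC.

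Pou5f1 (Oct4), Sox2 and Nanog are DNA-binding factors that together hold the pluripotent state, and Sall4 is a zinc finger protein that binds with them. Lin28a and Lin28b are RNA-binding proteins that block the maturation of let-7 microRNAs, while let-7 binds the 3′ UTRs of both Lin28 transcripts. Utf1 is a chromatin-associated factor of pluripotent cells, and Dppa2 and Dppa4 are neighbouring genes whose SAP-domain proteins act together on chromatin. Naive cells resemble the epiblast before implantation and EpiSC the epiblast after it.

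The members lie on 8 chromosomes of GRCm38. Pou5f1 (ENSMUSG00000024406) spans chr17:35506018-35510772 on the plus strand, Sox2 (ENSMUSG00000074637) chr3:34650405-34652461 (plus) and Nanog (ENSMUSG00000012396) chr6:122707489-122714633 (plus). Sall4 (ENSMUSG00000027547) spans chr2:168748332-168767943 (minus), Lin28a (ENSMUSG00000050966) chr4:134003330-134018841 (minus) and Lin28b (ENSMUSG00000063804) chr10:45376620-45486395 (minus). Utf1 (ENSMUSG00000047751) spans chr7:139943789-139945112 (plus). Dppa4 (ENSMUSG00000058550, chr16:48283735-48294292) and Dppa2 (ENSMUSG00000072419, chr16:48310477-48319723) share the plus strand and lie 16.2 kb apart.

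Since let-7 is known to bind both Lin28 transcripts, the let-7a sequence (RefSeq) is shown with its seed, bases 2 to 8, in capitals. The same seed is in 8 of 8 let-7 5p microRNAs matched.
let-7a-5p: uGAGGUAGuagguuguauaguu
The letters complementary to the seed, CTACCTC, were searched in 3′ UTRs of GENCODE M21 on the transcribed strand. They occur in 8.99% of 20894 UTRs, at 2 places in Lin28a and at 4 in Lin28b. Among UTRs of like length, 14.8% of those like Lin28a (2775 bases) and 24.1% of those like Lin28b (4445 bases) hold at least 1. The sites are shown with the seed match in capitals, in order along each transcript. They lie at chr4:134005189-134005211 and chr4:134004551-134004573 for Lin28a, and at chr10:45381022-45381044, chr10:45378648-45378670, chr10:45378476-45378498 and chr10:45377060-45377082 for Lin28b, all on the minus strand of GRCm38.
Lin28a site 1: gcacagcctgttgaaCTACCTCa
Lin28a site 2: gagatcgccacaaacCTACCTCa
Lin28b site 1: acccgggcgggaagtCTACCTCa
Lin28b site 2: tatacttgttagtaaCTACCTCt
Lin28b site 3: gtttacagcacatggCTACCTCc
Lin28b site 4: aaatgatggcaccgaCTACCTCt
Both Lin28a sites and the first Lin28b site are followed by an A, and the other 3 Lin28b sites are not.

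Promoter windows of RefSeq (GRCm38.p6), the 250 bases before a start site, were matched for 6 of the 9 members, and Sall4, Dppa4 and Dppa2 had no entry. The windows of Lin28a, Lin28b and Utf1 are shown because these genes moved together between cultures, and that of Nanog because it carries a composite motif. Bases inside an annotated exon of the gene are left out. Capitals mark motif matches on either strand: the POU motif ATGCAAA (in 4.12% of 32851 windows), the SOX motif CATTGT (10.7%), a GC box GGGCGG (32.7%), and a POU-SOX composite (0.00913%). The composite is CATTNTN directly followed by the POU motif, so it overlaps the other 2 motifs where it holds them. It occurs in 3 windows. They include the Nanog window shown and another Nanog window that overlaps it and holds the same site.
Lin28a, chr4:134018842-134019066, minus strand: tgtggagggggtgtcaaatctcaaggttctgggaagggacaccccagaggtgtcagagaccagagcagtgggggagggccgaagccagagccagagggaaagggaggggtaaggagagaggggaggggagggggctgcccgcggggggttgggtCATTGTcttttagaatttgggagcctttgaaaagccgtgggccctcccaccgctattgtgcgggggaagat
Lin28b, chr10:45470202-45470451, minus strand: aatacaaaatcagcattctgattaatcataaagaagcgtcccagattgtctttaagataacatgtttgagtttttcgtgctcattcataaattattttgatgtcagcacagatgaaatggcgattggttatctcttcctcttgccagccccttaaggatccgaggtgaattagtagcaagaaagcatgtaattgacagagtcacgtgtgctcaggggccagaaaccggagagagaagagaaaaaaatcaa
Utf1, chr7:139943606-139943788, plus strand: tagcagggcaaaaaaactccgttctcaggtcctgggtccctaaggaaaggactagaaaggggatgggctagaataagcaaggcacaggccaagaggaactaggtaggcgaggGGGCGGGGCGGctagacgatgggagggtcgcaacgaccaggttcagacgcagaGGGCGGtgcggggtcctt
Nanog, chr6:122707239-122707488, plus strand: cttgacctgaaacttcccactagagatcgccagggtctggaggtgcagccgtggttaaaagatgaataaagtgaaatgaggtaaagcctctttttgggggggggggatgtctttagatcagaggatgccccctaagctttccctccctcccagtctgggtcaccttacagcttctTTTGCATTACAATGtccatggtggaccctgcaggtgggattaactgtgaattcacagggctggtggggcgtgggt
The Nanog composite lies 75 to 62 bases before the start, on the minus strand. Lin28a has 1 SOX match, 96 to 91 bases before its start, and Utf1 has 4 GC boxes in its full window, of which the first pair overlaps and 3 are in the stretch shown. Lin28b has no match to these 4 motifs. The windows also differ in base composition: GC content is 61.2% for Lin28a, 61.6% for Utf1, 52.0% for Nanog and 39.2% for Lin28b, against a median of 52.4% over all windows. The Lin28b window lies inside the longer Ensembl gene, whose first exon starts further upstream.

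Gene counts per library ran from 24490158 to 40591108. The 9 genes took 0.109% to 0.324% of the counts of a library. Library numbers in the table's header fall into a lower set (23 libraries) and a higher set (13 libraries: all 12 EpiSC libraries and Setd1a knockout 2i replicate 1), so EpiSC and the higher-numbered set cannot be told apart. Summed levels of 10 naive genes were lowest in EpiSC, while 2i and FCS overlapped. They were 2690 to 3970 CPM (the usual depth-scaled counts, on TMM library sizes) in 2i, 979 to 3290 in FCS and 19.5 to 649 in EpiSC. Summed levels of 8 primed genes were 95.5 to 245, 317 to 1700 and 222 to 1870 CPM. All FCS sums were above those in 2i, but the EpiSC range enclosed that of FCS and reached into that of 2i. Of the targeted genes, Bod1l was 48.3 ± 11.6 CPM in Bod1L knockout cells against 225 ± 66.4 in wild type (mean ± SD, n = 6 each). Setd1a was 39.6 ± 2.47 against 51.7 ± 6.37 CPM and Kmt2b 129 ± 12.8 against 157 ± 40.9 CPM in their own lines, with neither past the threshold (adjusted p = 0.0957 and 0.744). Kmt2b in 2i was 183 and 89.6 CPM in the libraries labelled Mll2 wild type and 145 and 136 CPM in those labelled knockout, so replicate 2 goes against its label, and gene totals include exons outside a deletion. Wild-type replicate 2 also had the lowest TMM scaling factor of all libraries (0.837) and the lowest Setd1a in wild-type 2i (37.7 CPM). What underlies its low Kmt2b was not tested. Directions in the Mll2 line are therefore those between libraries labelled knockout and wild type.

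Pou5f1, Sox2 and Nanog were the most abundant of the 9 transcripts in wild-type 2i cells, and Pou5f1 was the most abundant in FCS and EpiSC. Levels between genes are compared in TPM (depth-scaled counts divided by exon length), as means of 6 wild-type libraries. In 2i the order was Nanog 956, Pou5f1 556, Sox2 453, Dppa2 145, Sall4 132, Dppa4 94.8, Utf1 28.5, Lin28a 24.3 and Lin28b 3.75 TPM. In FCS it was Pou5f1 628, Nanog 525, Sox2 469, Utf1 403, Lin28a 251, Sall4 133, Dppa4 130, Dppa2 63.4 and Lin28b 21.0 TPM. In EpiSC it was Pou5f1 711, Lin28a 267, Utf1 258, Nanog 222, Sox2 122, Sall4 80.3, Lin28b 34.5, Dppa4 25.2 and Dppa2 16.6 TPM. Among the 23501 genes tested, Lin28a moved from rank 5751 in 2i to 595 in FCS and 531 in EpiSC, and Dppa2 from rank 1038 to 2546 and 7918. Several neighbours in these orders lay within their spread, among them Sall4 and Dppa4 in FCS and Lin28a and Utf1 in EpiSC.

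**Figure D1:**
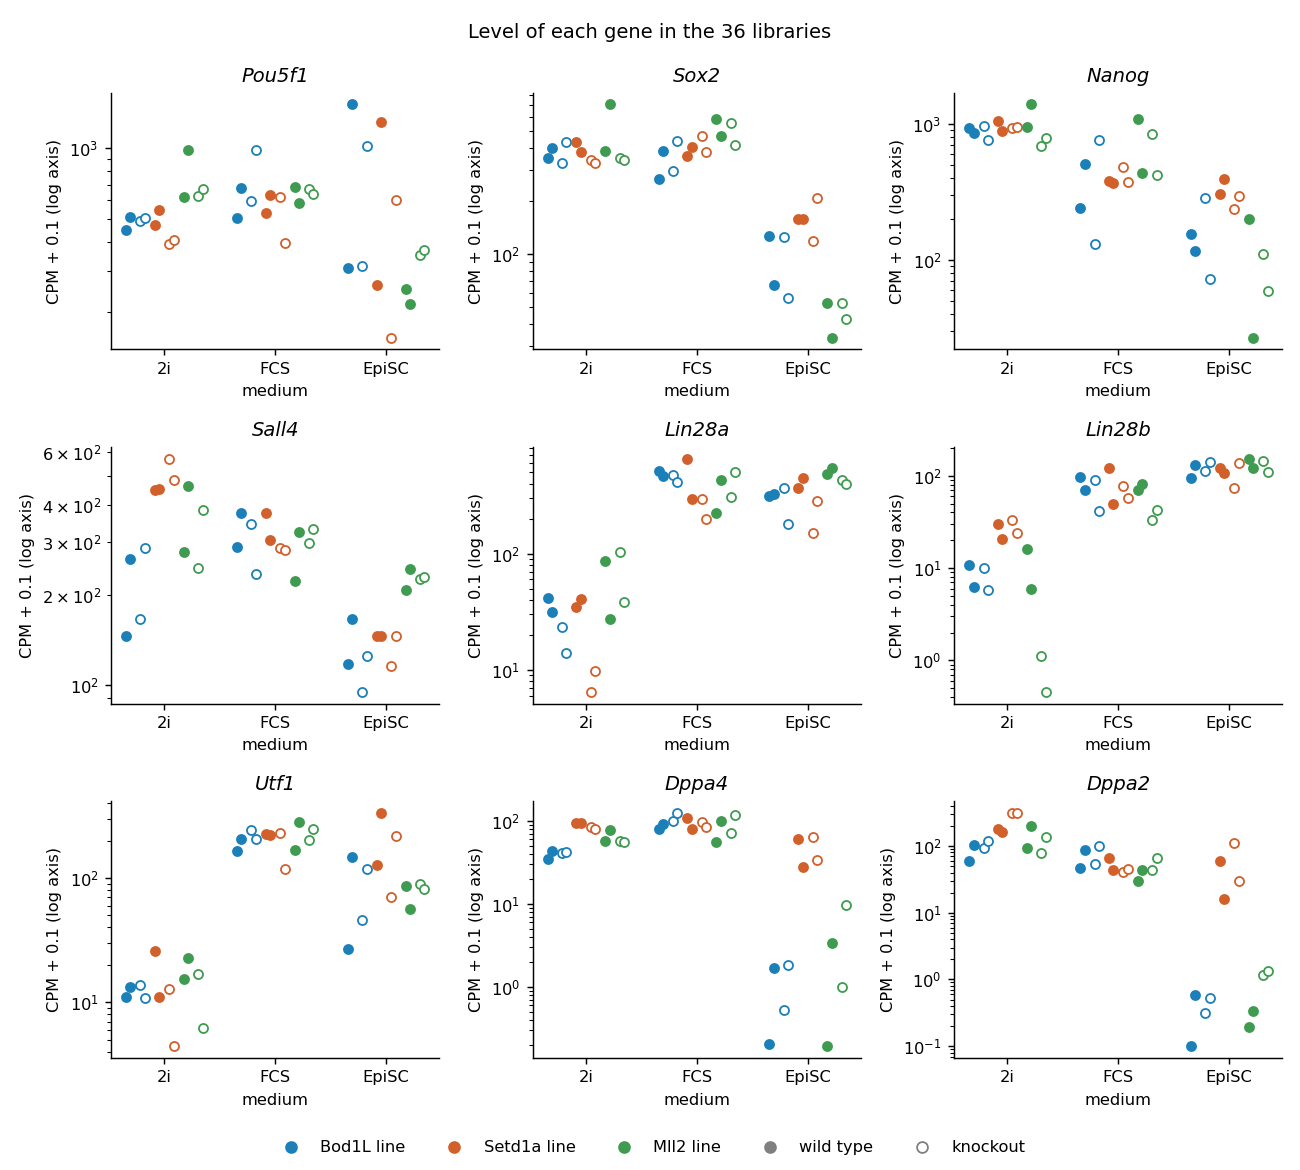
Level of each of the 9 genes in all 36 libraries, as CPM plus 0.1 on a log axis, by culture (x axis), with colours for the line, filled points for wild-type and open points for knockout libraries. Lin28a, Lin28b and Utf1 are low in 2i, and Dppa4 and Dppa2 in EpiSC are higher in the Setd1a line than in the other lines.

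The 3 pairwise comparisons of the cultures in wild-type cells averaged the 3 lines with equal weight on the log2 scale. They share libraries, so each is given by its own values. Log2 fold changes have their standard error, and adjusted p values are Benjamini-Hochberg values of edgeR's quasi-likelihood F test over all genes tested, called below 0.05, unless another tool is named. In FCS against 2i, 4 of the 9 members were called, where 27.8% of all genes were called: 3 were higher (13.3% of all genes) and 1 lower (14.5%). In EpiSC against 2i, 8 of 9 were called (52.5% of all genes): 3 higher (25.1%) and 5 lower (27.4%). In EpiSC against FCS, 5 of 9 were called (41% of all genes), none higher (20.4%) and 5 lower (20.6%). The wild-type libraries of both cultures did not overlap for 3 members in FCS against 2i (10.5% of all genes), for 5 in EpiSC against 2i (19.9%) and for 1 in EpiSC against FCS (12%). The median log2 fold change of the members was 0.05, -0.96 and -0.91 in these comparisons, beside -0.02, -0.07 and -0.01 over all genes. RNA came from whole cultures, so fewer cells with a transcript and less of it per cell cannot be told apart in any of these values.

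**Figure D2:**
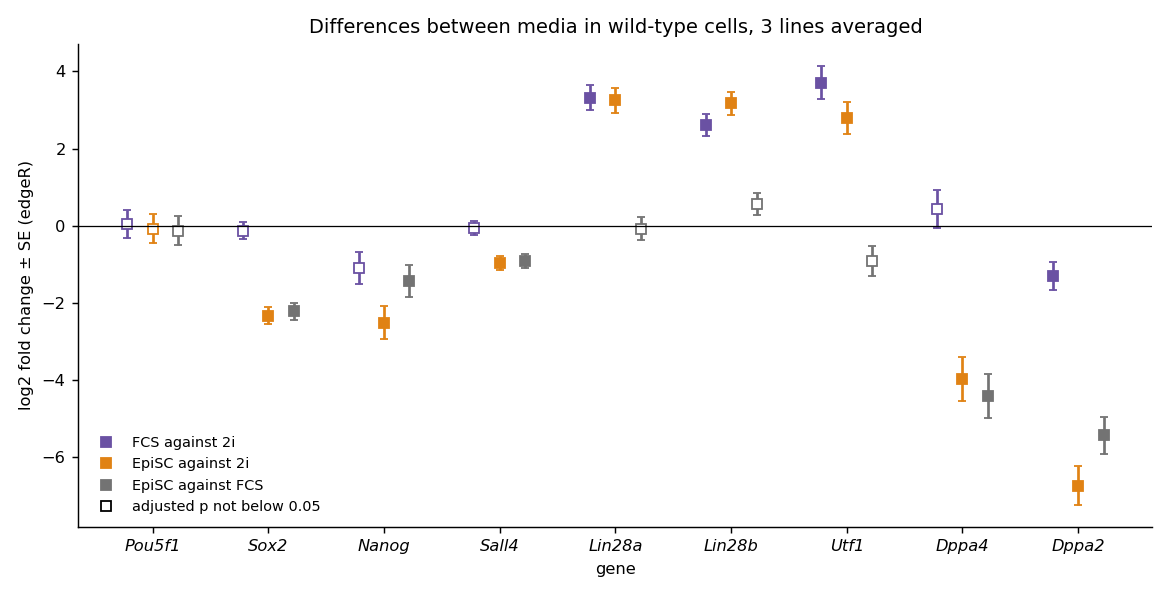
Log2 fold change ± SE between cultures in wild-type cells for each gene (x axis), from edgeR, with filled squares for adjusted p below 0.05. Lin28a, Lin28b and Utf1 are above 0 in both comparisons with 2i, and Dppa2 reaches -6.73 in EpiSC against 2i.

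Pou5f1, the gene for Oct4, showed no called change between cultures. It ran from 451 to 989 CPM in the 6 wild-type 2i libraries (median 529), from 504 to 682 in FCS (median 611) and from 218 to 1540 in EpiSC (median 285). The EpiSC range enclosed both others, and its high values were 1 of the 2 libraries of the Bod1L line (309 and 1540 CPM) and 1 of the Setd1a line (262 and 1300 CPM), while the Mll2 line held 218 and 252. Log2 fold changes were 0.05 ± 0.369 in FCS and -0.07 ± 0.369 in EpiSC against 2i, and -0.12 ± 0.369 in EpiSC against FCS (adjusted p = 0.963, 0.902 and 0.844). Knockout EpiSC showed the same spread, with 316 and 1020 CPM for Bod1L, 156 and 601 for Setd1a, and 351 and 370 for Mll2. Over the 6 pairs of replicates in a culture, the median ratio of the higher to the lower replicate was 3.55 in EpiSC against 1.10 in 2i and 1.27 in FCS.

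Sox2, the partner of Oct4 on composite motifs, fell in EpiSC against both other cultures. Its range was 352 to 708 CPM in 2i (median 394), 267 to 582 in FCS (median 395) and 33.3 to 158 in EpiSC (median 96.8). Every EpiSC library was below every library of the other cultures. Sox2 fell by 2.33 ± 0.22 in EpiSC against 2i (5.05-fold, adjusted p = 1.5e-08) and by 2.21 ± 0.219 against FCS (4.64-fold, adjusted p = 1.26e-07), while FCS against 2i gave -0.12 ± 0.209 (adjusted p = 0.733).

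Nanog, the homeodomain factor that fluctuates in serum cultures, was highest in 2i. It ran from 854 to 1380 CPM in 2i (median 940), from 241 to 1070 in FCS (median 406) and from 26.9 to 395 in EpiSC (median 178). In EpiSC all libraries were below those in 2i, whereas FCS overlapped 2i through a Mll2 library at 1070 CPM and overlapped EpiSC through the Bod1L and Setd1a lines (241, 368 and 378 CPM). Nanog fell by 2.51 ± 0.434 in EpiSC against 2i (5.69-fold, adjusted p = 4.92e-05) and by 1.43 ± 0.419 against FCS (adjusted p = 0.009). In FCS against 2i the log2 fold change was -1.08 ± 0.415, which missed the threshold (adjusted p = 0.0552), and DESeq2 (adjusted p = 0.035) called it. So did edgeR without the low-count filter (adjusted p = 4.91e-09), at nearly the same log2 fold change (-1.05). Adjusted p values of that fit were far smaller at like fold changes for other members too. Its calls, here and below, are therefore given as values and not as further support.

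Sall4, which is also an embryonic stem cell self-renewal factor, had the smallest of the called changes. It was 146 to 461 CPM in 2i (median 364), 223 to 376 in FCS (median 314) and 117 to 244 in EpiSC (median 156). The EpiSC range overlapped 2i through 1 Bod1L library (146 CPM in 2i) and FCS through 1 Mll2 library (223 CPM in FCS). Sall4 fell by 0.96 ± 0.183 in EpiSC against 2i (1.94-fold, adjusted p = 1.45e-04) and by 0.91 ± 0.182 against FCS (adjusted p = 4.13e-04), and was within its error between FCS and 2i (-0.05 ± 0.181, adjusted p = 0.899).

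A list of 16 genes around these factors (partners and targets such as Fgf4, Zfp281, Rif1 and Trim28) held 5 called higher and 1 called lower in FCS against 2i, with a median log2 fold change of 0.34. In EpiSC against 2i it held 2 higher and 9 lower (median -0.63), and in EpiSC against FCS 0 higher and 11 lower (median -1.13), beside the same shares of all genes as for the members (27.8%, 52.5% and 41%). Fbxo15, an F-box gene that Oct4 and Sox2 drive, fell from 331 CPM in 2i to 116 in FCS (by 1.55 ± 0.403, adjusted p = 0.00563) and to 19.1 in EpiSC (by 4.54 ± 0.457 against 2i, adjusted p = 4.04e-08). Gdf3, a TGF-beta family ligand, fell from 132 CPM in 2i to 23.0 in EpiSC (by 3.72 ± 0.319, adjusted p = 4.15e-09), and Mybl2, a cell-cycle transcription factor, from 516 to 140 (by 2.25 ± 0.199, adjusted p = 6.43e-09). L1td1, which codes for an RNA-binding protein, rose from 246 CPM in 2i to 680 in FCS (1.5 ± 0.237, adjusted p = 5.26e-05), and Phc1, a Polycomb subunit, from 224 to 580 (1.39 ± 0.277, adjusted p = 5.57e-04).

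Both Lin28 genes were low in 2i and high in the other cultures. Lin28a ran from 27.3 to 86.0 CPM in 2i (median 37.3), from 223 to 654 in FCS (median 448) and from 311 to 548 in EpiSC (median 402). The 2i libraries did not overlap those of FCS or EpiSC, for Lin28a or for Lin28b. Lin28a rose by 3.32 ± 0.317 in FCS (9.96-fold, adjusted p = 1.22e-07) and by 3.25 ± 0.316 in EpiSC against 2i (9.51-fold, adjusted p = 2.49e-08), with -0.07 ± 0.29 between EpiSC and FCS (adjusted p = 0.903). Lin28b ran from 5.83 to 30.2 CPM in 2i (median 13.3), from 49.8 to 121 in FCS (median 75.3) and from 93.8 to 153 in EpiSC (median 120). It rose by 2.61 ± 0.294 in FCS (6.12-fold, adjusted p = 9.15e-07) and by 3.18 ± 0.301 in EpiSC against 2i (9.07-fold, adjusted p = 1.65e-08), and EpiSC exceeded FCS by 0.57 ± 0.277 without a call (adjusted p = 0.107). The wild-type FCS and 2i libraries are all of the lower-numbered set.

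Within a library the ratio of Lin28b to Lin28a does not depend on scaling. Its log2 value was -1.68 ± 0.907 in 2i, -2.37 ± 0.363 in FCS and -1.76 ± 0.309 in EpiSC (mean ± SD, n = 6 each). Exact two-sided permutation tests over libraries, adjusted over 6 ratio tests, gave a higher ratio in EpiSC than in FCS by 0.62 (exact p = 0.0152, adjusted 0.0304). The tests took no account of the line, so libraries of 1 line counted as independent. FCS against 2i differed by -0.69 (exact p = 0.115, adjusted 0.173) and EpiSC against 2i by -0.08 (exact p = 0.859, adjusted 0.859). The spread in 2i came from the Setd1a line, at -0.18 and -0.96, while the Bod1L and Mll2 lines held -1.96 to -2.43. Leaving out any of 9 single libraries took the EpiSC and FCS difference past the threshold (adjusted p from 0.052 to 0.0606).

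**Figure D3:**
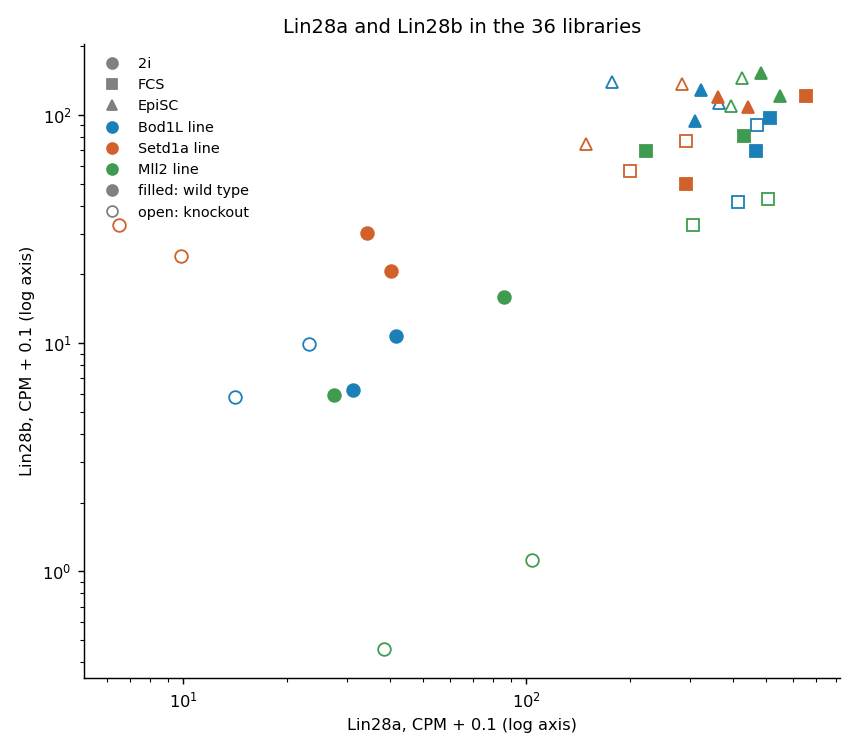
Lin28b against Lin28a in the 36 libraries, both as CPM plus 0.1 on log axes, with colours for the line, shapes for the culture and open symbols for knockout libraries. The 2i libraries sit apart from the others, with Setd1a knockouts at the lowest Lin28a (6.37 and 9.72 CPM) and Mll2 knockouts at the lowest Lin28b (0.355 and 1.02 CPM).

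The 16 other genes of the let-7 pathway (processing enzymes such as Drosha, Dgcr8, Dicer1, Tut4, Tut7 and Dis3l2, and known let-7 targets) moved in both directions. In FCS against 2i 4 were called higher and 1 lower (median 0.18), in EpiSC against 2i 4 higher and 3 lower (median 0.15), and in EpiSC against FCS 7 higher and 6 lower (median 0.14). The 5 and 7 of 16 called against 2i stand beside 27.8% and 52.5% of all genes, so they are near or below the background, and the 13 of 16 between EpiSC and FCS beside 41%. Mycn, a let-7 target and proto-oncogene, rose from 79.0 CPM in 2i to 249 in FCS (1.67 ± 0.214, adjusted p = 4.32e-06) and was 68.1 in EpiSC (-1.86 ± 0.215 against FCS, adjusted p = 8.68e-07). Igf2bp3, an mRNA-binding let-7 target, fell from 201 to 88.0 CPM in FCS (by 1.20 ± 0.187, adjusted p = 4.53e-05), and Trim71, a let-7 target of the RNA-binding ubiquitin ligases, rose from 322 to 527 (0.72 ± 0.203, adjusted p = 0.0104). Hmga2, a chromatin-bending let-7 target, rose from 37.9 CPM in 2i to 120 in EpiSC (1.65 ± 0.474, adjusted p = 0.00563), and Arid3a, also a let-7 target, from 23.6 to 56.4 (1.14 ± 0.234, adjusted p = 3.07e-04). Igf2bp1 of the same list fell from 877 CPM in 2i to 580 in EpiSC (by 0.59 ± 0.173, adjusted p = 0.00669). Dgcr8, the partner of Drosha, was 59.7 CPM in EpiSC against 120 in FCS (-1.01 ± 0.127, adjusted p = 2.76e-06).

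Utf1 had the largest rise of the 9 genes in FCS. It ran from 10.9 to 25.6 CPM in 2i (median 14.3), from 165 to 284 in FCS (median 215) and from 26.7 to 334 in EpiSC (median 106). The 2i libraries lay below all others, and EpiSC enclosed the FCS range. Utf1 rose by 3.71 ± 0.434 in FCS against 2i (13.1-fold, adjusted p = 1.47e-06) and by 2.80 ± 0.418 in EpiSC against 2i (6.99-fold, adjusted p = 8.14e-06), and EpiSC against FCS gave -0.91 ± 0.392 (adjusted p = 0.0679). In EpiSC its replicates differed in the same lines as those of Pou5f1, with 26.7 and 147 CPM in Bod1L and 127 and 334 in Setd1a against 55.8 and 86.2 in Mll2.

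Dppa2 and Dppa4 fell in EpiSC, to low levels in the Bod1L and Mll2 lines and by less in the Setd1a line. In wild-type Setd1a cells Dppa2 was 163 and 179 CPM in 2i and 15.9 and 59.7 in EpiSC. Dppa4 there was 93.8 and 94.5 CPM in 2i and 27.5 and 60.3 in EpiSC. Dppa4 ran from 34.5 to 94.5 CPM in 2i (median 67.8), from 55.2 to 107 in FCS (median 86.3) and from 0.0925 to 60.3 in EpiSC (median 2.41). Dppa2 ran from 58.7 to 201 CPM in 2i (median 133), from 30.0 to 86.4 in FCS (median 45.7) and from 0 to 59.7 in EpiSC (median 0.362). The overlap of EpiSC with the other cultures came from the Setd1a line. Averaged over the logs of the 3 lines, Dppa2 fell by 6.73 ± 0.498 in EpiSC against 2i (adjusted p = 5.51e-10) and by 5.43 ± 0.478 against FCS (adjusted p = 2.89e-08). Dppa4 fell by 3.97 ± 0.566 (adjusted p = 4.7e-06) and by 4.41 ± 0.576 (adjusted p = 4.26e-06) in the same comparisons.

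The 2 neighbours parted between 2i and FCS. Dppa2 fell by 1.30 ± 0.369 in FCS (2.46-fold, adjusted p = 0.0103), whereas Dppa4 had a log2 fold change of 0.44 ± 0.49 (adjusted p = 0.562). The log2 ratio of Dppa4 to Dppa2 within a library was -0.96 ± 0.28 in 2i, 0.74 ± 0.36 in FCS and 1.21 ± 1.3 in EpiSC (mean ± SD, n = 6 each). The 2i and FCS ratios did not overlap (difference 1.71, exact two-sided permutation p = 0.00216, adjusted 0.00648), nor did those of 2i and EpiSC (2.18, exact p = 0.00216, adjusted 0.00648). That p is the smallest these group sizes allow, and EpiSC against FCS differed by 0.47 (exact p = 0.485, adjusted 0.582). In wild-type Bod1L and Mll2 EpiSC the ratios rest on 0 to 18 reads of Dppa2 and 3 to 111 of Dppa4. The prior count of 2 in log2 CPM pulls ratios of few reads toward 0. Since 0 lies above all wild-type 2i ratios (highest -0.68), the non-overlap of 2i and EpiSC cannot be read as a result for these lines.

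**Figure D4:**
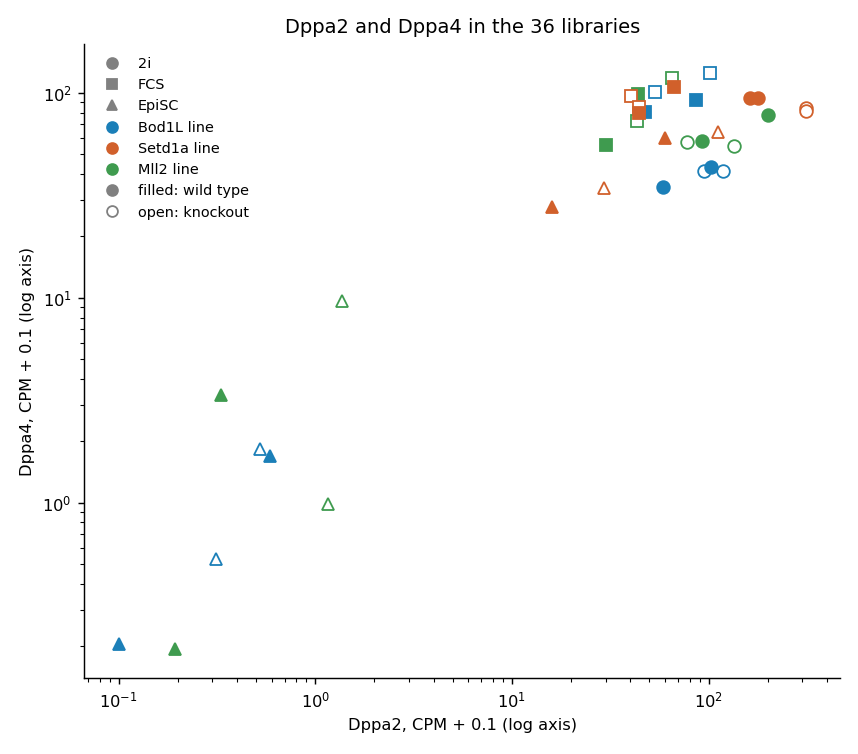
Dppa4 against Dppa2 in the 36 libraries, both as CPM plus 0.1 on log axes, with colours for the line, shapes for the culture and open symbols for knockout libraries. EpiSC of the Setd1a line lie near the embryonic stem cells, at 15.9 to 111 CPM of Dppa2, and EpiSC of the other lines reach at most 1.26 CPM.

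Levels of Dppa2 and Dppa4 in EpiSC differed by line. Wild-type Setd1a EpiSC held 15.9 and 59.7 CPM of Dppa2, against 0 and 0.491 in Bod1L and 0.0925 and 0.233 in Mll2. For Dppa4 the values were 27.5 and 60.3 CPM in Setd1a, 0.105 and 1.58 in Bod1L, and 0.0925 and 3.24 in Mll2. Knockout cells repeated the pattern, with 29.3 and 111 CPM of Dppa2 and 34.0 and 64.4 of Dppa4 in Setd1a, at most 1.26 and 9.54 CPM in the other lines.

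The 3 wild-type lines differed on average over cultures for Dppa2 (adjusted p = 1.8e-05) and Dppa4 (adjusted p = 0.00431), that is for 2 of 9 members where 14.7% of all genes were called. The effect of the culture differed between lines for 3 of 9 members (3.89% of all genes): Dppa2 (adjusted p = 1.3e-04), Sox2 (adjusted p = 0.0302) and Dppa4 (adjusted p = 0.0394). Dppa2 kept its call without any one of the 18 wild-type libraries (highest adjusted p 0.00159). Dppa4 kept it in 6 of 18 cases (up to 0.151, without Setd1a EpiSC replicate 1), and Sox2 in 10 of 18 (up to 0.217, without Mll2 EpiSC replicate 2). With a replicate block across media, Sox2 lost its call (adjusted p = 0.12) and Dppa2 and Dppa4 kept theirs, beside 2.25% of all genes. Sox2 in EpiSC was 157 and 158 CPM in the Setd1a line, 66.7 and 127 in Bod1L and 33.3 and 52.4 in Mll2. Nanog in EpiSC was also highest in the Setd1a line, at 302 and 395 CPM against 116 and 156 in Bod1L and 26.9 and 200 in Mll2, without a called difference.

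Markers differed with these lines. Over both genotypes, the summed level of 10 naive genes in EpiSC was 460 to 649 CPM in the Setd1a line, 19.5 to 221 in Bod1L and 51.9 to 70.0 in Mll2, against 2690 to 3970 in 2i. Esrrb, a naive orphan receptor, was 104 to 163 CPM in Setd1a EpiSC, at most 1.81 in Bod1L and 4.65 in Mll2, and Zfp42 (Rex1) 41.4 to 101, at most 0.364 and at most 2.42 CPM. Summed levels of the 8 primed genes in EpiSC overlapped between Setd1a (222 to 834 CPM) and Bod1L (497 to 939) and were 1450 to 1870 in Mll2. Of these genes Fgf5, the primed-state growth factor, was 3.92 to 14.7 CPM in Setd1a EpiSC, 35.6 to 75.1 in Bod1L and 112 to 270 in Mll2. Zic2 was also lower in Setd1a than in Bod1L (14.4 to 56.0 against 104 to 152 CPM). Other primed genes overlapped between Setd1a and Bod1L. Among them were Otx2 (0.587 to 54.1 against 7.47 to 23.2 CPM), Pou3f1 (32.0 to 62.0 against 22.2 to 53.8) and Dnmt3b (73.3 to 517 against 200 to 259). The mesendoderm gene T (Brachyury) reached 80.4 to 635 CPM in Mll2 EpiSC, where Sox2 was lowest, against 1.61 to 14.9 in Bod1L and 2.70 to 8.45 in Setd1a. Summed levels of 7 feeder fibroblast genes were 1100 to 6740 CPM in Bod1L EpiSC, 146 to 4000 in Setd1a and 82.8 to 154 in Mll2, beside 1.94 to 12.0 in 2i and 14.4 to 250 in FCS. The part of other cell types or of residual naive cells in the EpiSC values was not tested.

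A list of 11 genes that depend on Dppa2 and Dppa4 or mark the 2-cell-like state had 8 called lower in FCS against 2i (median -5.65) and 9 called lower in EpiSC against 2i (median -5.97), none higher, where 14.5% and 27.4% of all genes were called lower. Zscan4c, a gene of 2-cell-like cells, was 50.9 CPM in 2i, 3.49 in FCS (-6.91 ± 1.00, adjusted p = 1.84e-05) and 9.29 in EpiSC (-7.32 ± 1.09, adjusted p = 8.52e-06). The CPM are means over libraries and the log2 values average the logs of the lines, so their sizes differ. The copies Zscan4b and Zscan4f share sequence with Zscan4c, so reads are uncertain between them. Syce1, a synaptonemal complex gene, was 15.7 CPM in 2i, 27.3 in FCS and 1.64 in EpiSC, and was the 1 gene of the list called between EpiSC and FCS (-7.87 ± 1.10, adjusted p = 1.36e-05). The culture effect differed between wild-type lines for 7 of the 11 genes, beside 3.89% of all genes. Since the list holds copies that share sequence, these 7 need not be separate results. In Setd1a knockout cells Zscan4c averaged 170 against 35.4 CPM (2.75 ± 0.863, adjusted p = 0.0482) and Mkrn3 6.85 against 10.1 CPM (-0.55 ± 0.169, adjusted p = 0.0438). With the block 9 of the list were higher and 1 lower (14.3% and 11.7% of all genes). Dppa2 averaged 142 CPM in these cells against 88.1 in wild type without a call, but was lower in FCS (mean 42.2 against 55.3 CPM). A link between Dppa2 and these values was not tested.

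Among 10 genes that share a family or only a family name with the members, 2 were called higher and 1 lower in FCS against 2i, 4 and 4 in EpiSC against 2i, and 3 and 4 in EpiSC against FCS. Those 3, 8 and 7 of 10 stand beside 27.8%, 52.5% and 41% of all genes. Pou3f1 (Oct6), a POU factor of the primed state, rose from 3.41 CPM in 2i to 47.7 in FCS (4.22 ± 0.579, adjusted p = 9.73e-06). Sall2 rose from 7.46 to 24.0 CPM (1.45 ± 0.419, adjusted p = 0.0119) and Sall3 fell from 18.7 to 4.79 (by 1.91 ± 0.594, adjusted p = 0.0185), both zinc finger relatives of Sall4. Sox1, a neural relative of Sox2, rose from 2.04 CPM in 2i to 31.2 in EpiSC (4.31 ± 0.813, adjusted p = 1.3e-04). Dppa5a, which shares only the name, was 648 CPM in 2i and 66.2 in EpiSC (-7.23 ± 0.506, adjusted p = 2.64e-10), and Dppa3 (Stella), likewise not of that family, 51.5 and 5.51 CPM (-6.08 ± 0.637, adjusted p = 9.84e-08). These CPM are means over libraries, while the log2 values average the logs of the lines, so their sizes differ. Over both genotypes, Dppa3 in EpiSC was 4.16 to 22.0 CPM in Setd1a, at most 0.0918 in Bod1L and at most 0.467 in Mll2.

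In the knockouts, Lin28a in the Setd1a line and Lin28b in the Mll2 line were called in the main test, which has the low-count filter and no replicate block. In the Setd1a line 1 of 9 members was called in 2i (1.69% of all genes), 0 in FCS (0.762%), 0 in EpiSC (1.54%) and 1 on average over the cultures (8.85%). In the Mll2 line 1 was called in 2i (0.464%), 0 in FCS and 0 in EpiSC (0% of all genes in both), and 1 on average (0.694%). In the Bod1L line no member was called in 2i (0.374%), FCS (0.191%), EpiSC (0.438%) or on average (2.03%), and none had an unadjusted p under 0.05. DESeq2 also called no member in the Bod1L line. Replicates of the same number deviated together in knockout and wild-type cells, so a fit with culture pairs as a block is given where it changes a call.

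**Figure D5:**
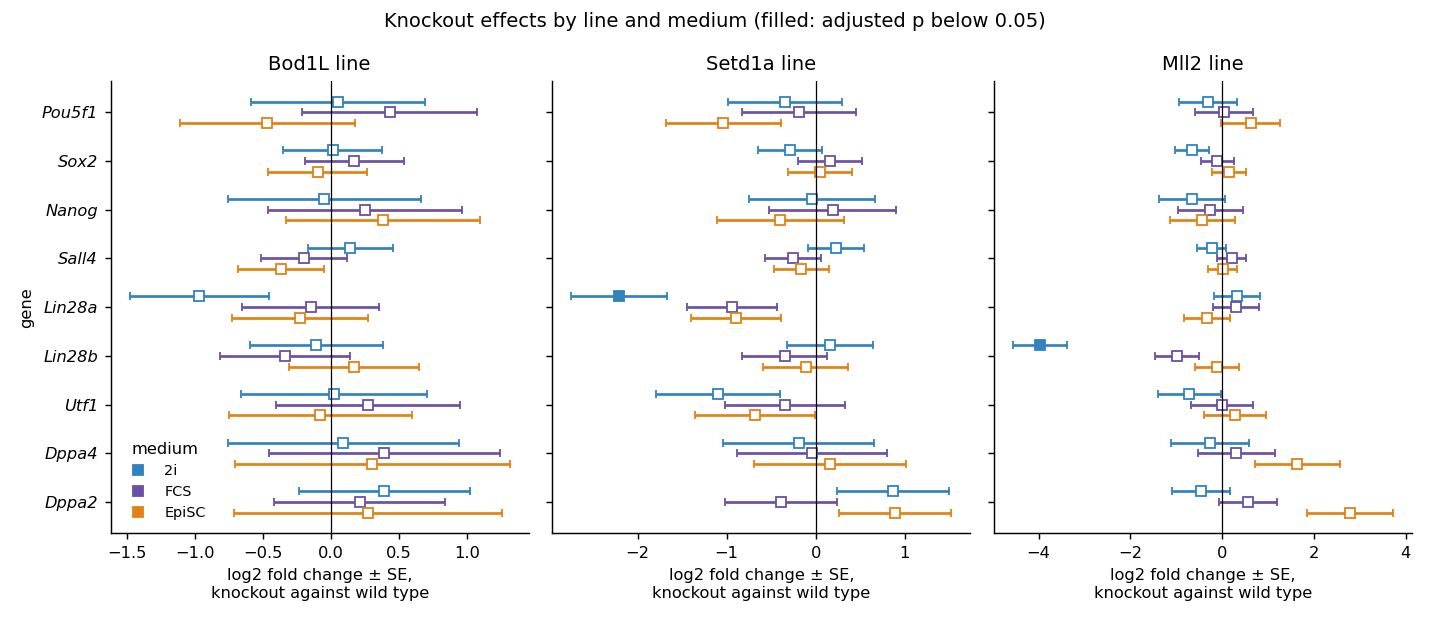
Log2 fold change ± SE of knockout against wild type for each gene (y axis) in each line (panels) and culture (colours), from edgeR, with filled squares for adjusted p below 0.05. The filled squares are Lin28a in the Setd1a line and Lin28b in the Mll2 line, both in 2i.

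Lin28a fell in Setd1a knockout cells in 2i and on average over the cultures. In 2i the knockout libraries held 6.37 and 9.72 CPM against 34.3 and 40.2 in wild type, and the groups did not overlap. Lin28a fell there by 2.21 ± 0.534 (4.63-fold, adjusted p = 0.0303; 1.79e-05 with the replicate block). The call was lost without any 1 of the 4 libraries, with adjusted p from 0.124 to 0.372. Replicate 1 of the knockout is the 1 2i library of the higher-numbered set, and without it the log2 fold change was -1.92. In FCS the knockout held 200 and 292 CPM against 292 and 654 (-0.94 ± 0.506, adjusted p = 0.837; 0.0488 with the block, where 3.91% of all genes were called). In EpiSC it held 149 and 284 against 363 and 442 CPM (-0.90 ± 0.506, adjusted p = 0.498; 0.0131 with the block). Averaged over cultures Lin28a fell by 1.35 ± 0.297 (2.55-fold, adjusted p = 0.00473), it was lower in 6 of 6 replicate pairs, and the call held without any 1 of the 12 libraries (highest adjusted p 0.0266). Other measures differed in the same libraries. Summed primed markers were 474 and 500 CPM in knockout against 1700 and 692 in wild-type FCS cells, and 222 and 680 against 460 and 834 in EpiSC. In 2i they were 159 and 171 against 171 and 181 CPM. The mitochondrial share of counts in 2i was 7.32% and 7.71% in knockout against 4.11% and 3.43% in wild-type cells. Their part in the Lin28a values was not tested. The test of a Setd1a effect that differs between cultures called no member (0% of all genes).

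Lin28b was not called in the Setd1a line, with 32.7 and 24.1 CPM in knockout 2i cells against 30.2 and 20.7 in wild type and an averaged log2 fold change of -0.10 ± 0.277 (adjusted p = 0.887). Of the let-7 pathway, 0 genes were called higher and 2 lower on average in this line, beside 3.29% and 5.57% of all genes. The 2 were Igf2bp3 (68.8 against 113 CPM, -0.70 ± 0.185, adjusted p = 0.0179) and Hmga1, for a chromatin-bending protein (84.0 against 130 CPM, -0.66 ± 0.185, adjusted p = 0.0264). With the block it was 1 higher and 7 lower, where 14.3% of all genes were called higher and 11.7% lower. The other members of the Setd1a line had averaged log2 fold changes from -0.71 (Utf1) to 0.46 (Dppa2).

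Some of these were called in other fits. With the block, 4 of 9 members were called on average, beside 26% of all genes: Lin28a, Utf1 (-0.77, adjusted p = 0.00857), Pou5f1 (-0.50, adjusted p = 0.00787) and Dppa2 (0.47, adjusted p = 0.0179). In 2i 3 of 9 were called with the block (12.4% of all genes): Lin28a, Dppa2, at 313 and 313 CPM in knockout against 163 and 179 in wild-type cells (0.87, adjusted p = 0.0211), and Utf1, at 4.34 and 12.7 against 10.9 and 25.6 CPM (-1.16, adjusted p = 0.047). In EpiSC they were also 3 of 9 (11.9%): Lin28a, Dppa2 (0.89, adjusted p = 0.0234) and Pou5f1 (-0.93, adjusted p = 0.0123). Without the low-count filter and with no block, Utf1 was called in 2i (adjusted p = 0.0338) and on average (0.00182), and Pou5f1 in EpiSC (0.0136) and on average (0.0199). These values carry the limit given for that fit with Nanog, and no share of all genes is given for it. The knockout 2i replicates come from different number sets. In CPM, 7 of the 9 genes were within 1.35 times of each other between them, the exceptions being Lin28a and Utf1. In TPM all but Lin28a (3.75 and 3.80) lay further apart than in CPM. Among them were Pou5f1 (279 and 417 TPM), Nanog (645 and 989) and Lin28b (4.10 and 8.59), so the likeness of these replicates depends on the scale.

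Lin28b fell in the libraries labelled Mll2 knockout in 2i and on average over the cultures. In 2i these libraries held 0.355 and 1.02 CPM (11 and 34 reads) against 5.83 and 15.9 CPM (189 and 553 reads) in those labelled wild type. Lin28b fell there by 3.97 ± 0.581 (15.7-fold, adjusted p = 0.00211). Without knockout 2i replicate 2 the call was lost (-3.41, adjusted p = 0.0598), and without wild-type 2i replicate 2, the library of low Kmt2b, it was -4.52 (adjusted p = 0.00117). In FCS the values were 32.9 and 42.7 against 69.6 and 81.0 CPM (-0.99 ± 0.484, adjusted p = 1; 0.0393 with the block, where 0.825% of all genes were called), and in EpiSC 109 and 145 against 121 and 153 CPM (-0.11 ± 0.478, adjusted p = 1). Averaged over cultures Lin28b fell by 1.69 ± 0.296 (3.23-fold, adjusted p = 0.00503), was lower in 6 of 6 pairs, and kept its call without any 1 of the 12 libraries (highest adjusted p 0.0319). No culture difference of the Mll2 effect was called among the members (0.00426% of all genes), where Lin28b had an adjusted p of 0.286; with the block it was called (adjusted p = 1.88e-04), as were Dppa2 (0.00981) and Dppa4 (0.0163), beside 1.61% of all genes. Without the filter Lin28b (3e-11) and Dppa2 (7.55e-05) were called, with the limit given for that fit under Nanog.

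Lin28a in the Mll2 line had an averaged log2 fold change of 0.10 ± 0.29 (adjusted p = 1), with 38.3 and 104 CPM in libraries labelled knockout in 2i against 27.3 and 86.0. In EpiSC of this line Dppa2 held 1.06 and 1.26 CPM in libraries labelled knockout against 0.0925 and 0.233, and Dppa4 0.882 and 9.54 against 0.0925 and 3.24. These were not called in the main test (adjusted p = 0.846 and 1). They were called with the block (2.81, adjusted p = 0.00345, and 1.83, adjusted p = 0.00262; 2.16% of all genes) and without the low-count filter (adjusted p = 6.14e-06 and 0.00353). With the block the averaged values were called as well (Dppa2 0.98, adjusted p = 0.004; Dppa4 0.63, adjusted p = 0.00877; 7.2% of all genes), and Dppa2 also without the filter (adjusted p = 0.00113). The values without the filter carry the limit given for that fit with Nanog.

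The knockout effects were then compared directly, averaged over cultures. Setd1a against Mll2 gave a higher Lin28b by 1.59 ± 0.403 (adjusted p = 0.0298), the 1 of 9 members called (2.87% of all genes). In 12 of 24 fits that each left out 1 library this call was lost (highest adjusted p 0.073), and with the block the adjusted p was 2.07e-05. Lin28a differed the other way, by -1.45 ± 0.414, without a call (adjusted p = 0.0599; 4.3e-05 with the block; 0.0215 with DESeq2). With the block Dppa4 (-0.64, adjusted p = 0.0295) and Pou5f1 (-0.63, adjusted p = 0.0262) were called too, beside 14.1% of all genes. Bod1L against Mll2 called no member (1.03% of all genes), with Lin28b at 1.60 ± 0.404 (adjusted p = 0.0557; 6.02e-05 with the block, where 5.57% of all genes were called). Setd1a against Bod1L called no member either (0.00426%), with Lin28a at -0.90 ± 0.413 (adjusted p = 0.953; 0.0445 with the block, 0.762% of all genes).

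In the Bod1L line the nearest value was Lin28a in 2i, at a mean of 18.6 CPM in knockout against 36.3 in wild-type cells (-0.97 ± 0.51, adjusted p = 1; 0.027 with the block, 2.8% of all genes). Averaged over cultures it was -0.45 ± 0.291 (adjusted p = 0.857; 0.0373 with the block, 6.17% of all genes), lower in 5 of 6 pairs. The other 8 members had averaged log2 fold changes from -0.14 (Sall4) to 0.29 (Dppa2) in this line, and the test of a difference between cultures called none (0% of all genes).

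The genes of most similar pattern over the 36 libraries were taken as the 3 of highest Pearson r of log2 CPM with each member, among 12244 genes of at least 5 CPM on average, as a description. The libraries share lines, cultures and number sets. Sox2 was closest to Nr5a2 (r = 0.942), Ung (0.939) and Mybl2 (0.936), and Nanog to Itpka (0.908), Nfatc2ip and Zfp472 (0.89 each). Pou5f1 was closest to Gm5712 (0.914), Pmm1 (0.831) and Lsm2 (0.793), and Sall4 to Gm4852 (0.868), Gm13414 (0.852) and Dnajb6 (0.847). Lin28a was closest to Sinhcaf (0.913), Timm21 (0.912) and Ajuba (0.903), Lin28b to Arhgef25 (0.954), Slc4a3 (0.951) and B4galt2 (0.946), and Utf1 to Rhebl1 (0.907), Esrp1 (0.905) and Aldh7a1 (0.897). Dppa4 was closest to Gm14058 (0.993), Rnf17 (0.961) and EU599041 (0.96), and Dppa2 to Gm9788 (0.987), Gm8023 (0.986) and Zfp600 (0.983). Among the members the closest pair was Dppa4 and Dppa2 (r = 0.938 over 36 libraries; 0.793, 0.765 and 0.937 within 2i, FCS and EpiSC, n = 12 each). Sox2 and Nanog followed (0.873; 0.663, 0.878 and 0.873). Lin28a and Lin28b had r = 0.667 over all libraries and -0.432, 0.405 and 0.441 within the cultures.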

How the data were processed

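RNA was extracted with Trizol, poly(A)-selected and made into strand-specific libraries, per the labels' protocols. Reads were aligned with GSNAP to GRCm38/mm10, per the submitters' processing notes. The authors deposited raw gene counts made with featureCounts 1.5.2 on Ensembl 87 (strand setting 2, primary alignments, mapping quality of at least 1), per the file headers. After removal of 92 spike-in rows with 0 counts, 49671 genes were left, of which 345 had no symbol in GENCODE M21. Genes passing filterByExpr (minimum count 10) numbered 23501 and were fitted with edgeR 4.0.16 (TMM scaling, quasi-likelihood F test, R 4.3.3) as 18 groups over 36 libraries, with 18 residual degrees of freedom and Benjamini-Hochberg adjustment below 0.05. Totals of 24490158 to 40591108 counts per library set the precision of low levels. CPM and TPM were computed from the counts, and log axes add 0.1 to CPM. Ratios were tested by exact permutation of libraries without regard to line (scipy 1.17.1).

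Alternatives were DESeq2 1.42.0, DESeq2 size factors, no filter, a replicate block and leaving out each library. Same-numbered knockout and wild-type libraries deviated together (r from 0.401 to 0.848 over 9 pairs of groups, all over 0.1), a pairing inferred from the data. Between media 4 of 9 correlations passed 0.1, so those libraries were not treated as paired. The labels call replicates biological and name no separate cultures, so p values measure the spread between these samples, which may be technical. Members and lists were chosen with earlier results of these data known. Genes given with values from a list other than the markers are among the 3 with the largest called change in a comparison. Not all such genes are named. The most similar genes are the 3 of highest correlation. Reads of antisense genes were few (at most 792 counts, for Gm19553, beside 675100 for Pou5f1). Every library had a group and none was left out.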

Additional observations from a re-analysis of the deposited data

Results flagged for a closer look

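In 54 groups of 6 libraries (a gene, a genotype and a culture, over 3 lines), 10 had 1 library far from the others by Dixon's test. The test flags about 1 in 20 groups by chance where a group is homogeneous and groups are independent. Neither holds here, since a group mixes 3 lines and the genes share libraries, so the 10 cannot be read as an excess. The library labelled Mll2 wild type 2i replicate 2 was highest in wild-type 2i for Pou5f1 (989 CPM), Sox2 (708 CPM) and Nanog (1380 CPM). It also held the lowest Kmt2b of its line, and in TPM the wild-type 2i ranges were 465 to 634 for Pou5f1, 396 to 496 for Sox2 and 886 to 1070 for Nanog. Sox2 reached 430 CPM in Bod1L knockout 2i replicate 2, and Nanog 1070 CPM in Mll2 wild type FCS replicate 1. Lin28a in 2i was highest in Mll2 replicate 1, at 86 CPM in wild type and 104 CPM in knockout. Utf1 was lowest in knockout FCS cells in Setd1a replicate 2 (119 CPM). Dppa2 in EpiSC was highest in Setd1a replicate 1, at 59.7 CPM in wild type and 111 CPM in knockout.

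Effects that differed between lines by a test of the difference were those of the culture on Dppa2 (adjusted p = 0.00013), Sox2 (adjusted p = 0.0302) and Dppa4 (adjusted p = 0.0394), and of the Setd1a against the Mll2 knockout on Lin28b (adjusted p = 0.0298), all from edgeR. Lin28b was higher by 1.59 in the Setd1a than in the Mll2 knockout effect.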

How the results depend on the processing

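The 17 calls of members between cultures in wild-type cells (4, 8 and 5 of 9) kept their direction and their side of the threshold under all alternatives run, a replicate block across media included. Further members were called in some: without the low-count filter 5 in FCS against 2i and 7 in EpiSC against FCS, and on leaving out 1 library 4 to 5 and 5 to 6. These were Nanog in FCS against 2i (4 of 16 settings), and Utf1 (3 of 16) and Lin28b (2 of 16) in EpiSC against FCS. For the knockouts the number of members called moved by more, and the cause was not tested. With the replicate block the Bod1L line had 1 in place of 0 in 2i and likewise averaged over cultures, and it was 3 in place of 1 for Setd1a in 2i, 1 in place of 0 in FCS, 3 in place of 0 in EpiSC and 4 in place of 1 on average. For Mll2 the block gave 1 in place of 0 in FCS, 2 in place of 0 in EpiSC, 3 in place of 1 on average and 3 in place of 0 for the difference between media. Between knockouts it gave 1 in place of 0 for Setd1a against Bod1L, 4 in place of 1 for Setd1a against Mll2 and 1 in place of 0 for Bod1L against Mll2, and for culture effects between lines 2 in place of 3. Without the low-count filter the counts were 2 (Setd1a 2i), 1 (Setd1a EpiSC), 3 (Setd1a average), 2 (Mll2 EpiSC), 2 (Mll2 average), 2 (Mll2 between media), 2 (Setd1a against Mll2), 1 (Bod1L against Mll2) and 8 (culture effects between lines). No share of all genes is given for that fit, and its adjusted p values were far smaller at like log2 fold changes. Its counts, those between cultures included, are therefore not read as results about the members. DESeq2 called 2 for Setd1a against Mll2 and 1 for Bod1L against Mll2. Leaving out 1 library gave 0 to 0 for Setd1a in 2i, 0 to 1 for Mll2 in 2i, 0 to 1 for Setd1a against Mll2, 0 to 1 for Bod1L against Mll2 and 1 to 3 for culture effects between lines. The difference in log2 ratio of Lin28b to Lin28a ran from -0.84 to -0.39 in FCS against 2i, from -0.23 to 0.22 in EpiSC against 2i (reversed at 0.22, 0.07 and 0.01) and from 0.53 to 0.75 in EpiSC against FCS. Depth limits Dppa2 in Bod1L and Mll2 EpiSC, which held few reads.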
